A study of Mus musculus with 2 samples.

Results

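The Wnt ligands, their Frizzled and Lrp receptors, the secreted antagonists of the Sfrp and Dkk families and the Axin scaffolds were described in mouse embryonic stem cells (mESCs) of the Sv129 line. The members were the rows of the deposited gene table whose symbol was Wnt with a number, Fzd with a number, Sfrp or Dkk with a digit, Lrp5 or Lrp6, or Axin1 or Axin2. This gave 40 of 28839 genes, namely 19 Wnt ligands, 10 Frizzled receptors, 2 Lrp co-receptors, 4 Sfrp genes, 3 Dkk genes and 2 Axin genes. The folate-deficient cells (FA0) were cultured in medium with folate at 0 mg/L, and the control cells (FA4) in medium with folate at 4 mg/L. The cells of both groups were split from the same Sv129 culture, and both media held fetal bovine serum and leukemia inhibitory factor. The length of the treatment and the folate brought in with the serum were not given in the sources used here. RNA-seq was done with 1 library per condition, so the differences below were not checked against replicates and carry no p-value.

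Wnt proteins are lipid-modified secreted signals that bind a Frizzled receptor together with the co-receptor Lrp5 or Lrp6. Binding stops the destruction complex, in which Axin is the scaffold, from degrading beta-catenin, which then enters the nucleus and acts with TCF/LEF factors. Sfrp proteins bind Wnt ligands outside the cell, whereas Dkk1 and Dkk2 bind Lrp5 and Lrp6. In mESCs the beta-catenin branch supports self-renewal, and in the embryo the pathway patterns the body axis and the neural tube, the structure whose closure is the subject of the study.

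FPKM, which scales reads to exon length and library size, allows levels to be compared between genes of different length. A gene was called expressed when its FPKM reached 1 in either library, which held for 14345 genes of the table and for 17 of the 40 members. Of these 17, 16 passed in both libraries, and Fzd3 passed through FA4 alone. The change of a gene is the difference of log2(FPKM + 1), FA0 minus FA4, and at least 1 in size counts as at least 2-fold higher or lower. The added 1 makes this change smaller for weakly expressed genes, and ratios of FPKM with nothing added are therefore given too. The 95% Clopper-Pearson intervals of these ratios come from the reads behind each FPKM. They hold counting error alone and say nothing of how cultures vary. In RNA of whole cultures, fewer cells that use a gene and less RNA per cell cannot be told apart.

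Sfrp1 and Dkk3 were the 2 members called at least 2-fold higher in folate-deficient mESCs, and 0 members were called at least 2-fold lower. Across all expressed genes, 2.99% were called higher and 1.32% lower. By the FPKM ratio, 4 of the 17 expressed members were at least 2-fold higher (Sfrp1, Dkk3, Wnt6 and Lrp5) and 0 were at least 2-fold lower, against 7.31% and 3.11% of all expressed genes. FPKM was higher in FA0 for 11 expressed members and lower for 6, and 55.7% of all expressed genes were higher. The counting interval lay above 1 for 9 members, below 1 for 5 and held 1 for 3. Such intervals lay above 1 for 34.1% and below 1 for 25.5% of the 13329 expressed genes whose reads could be recovered, so most genes differed by more than counting error. The median change of the 17 expressed members was 0.15, with a range of -0.62 to 1.38, and that of all expressed genes was 0.05.

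**Figure D1:**
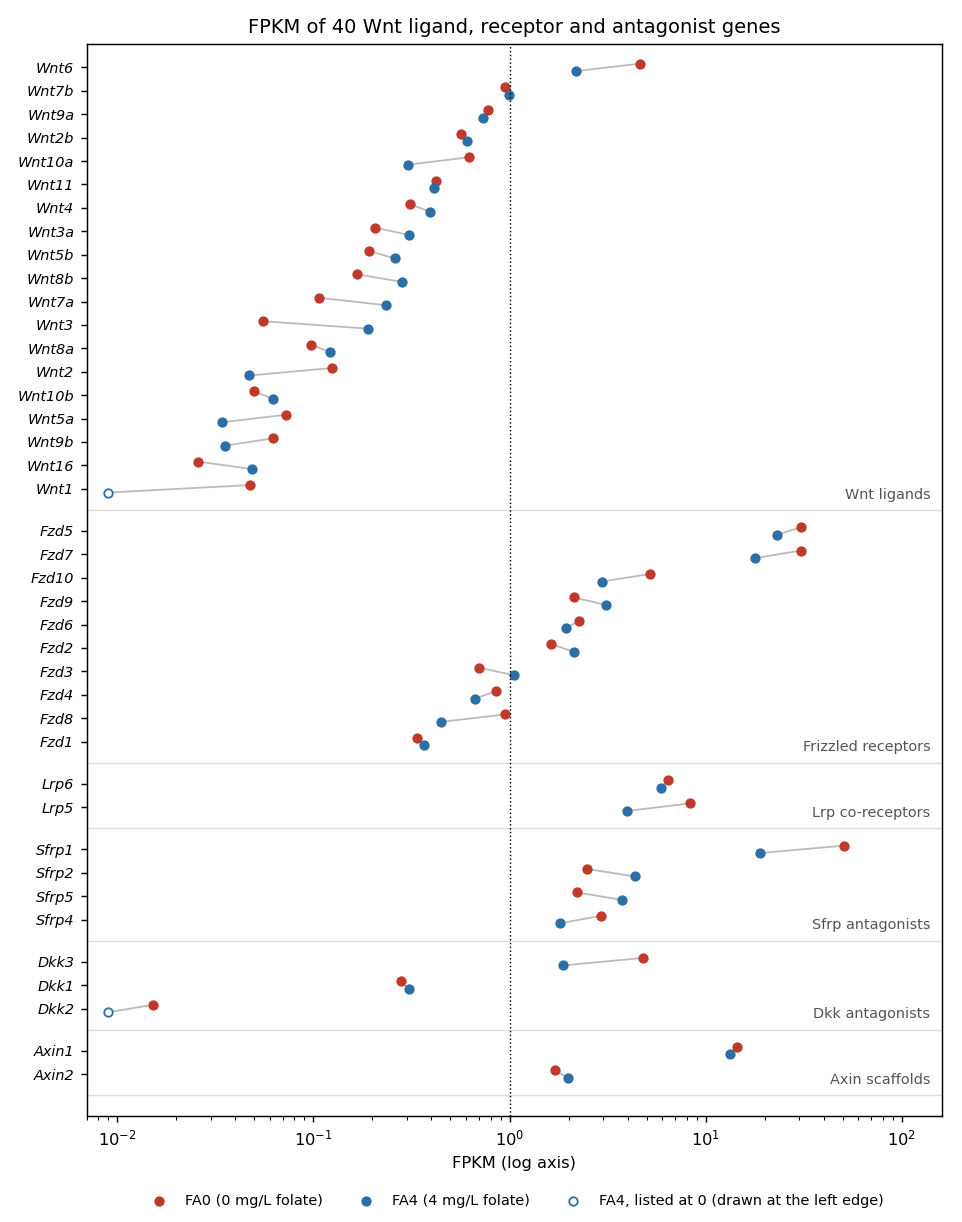
FPKM of the 40 members in FA0 (red) and FA4 (blue) on a log axis, grouped by role, with 1 point per library and the dotted line at the FPKM of 1 that marks an expressed gene. Sfrp1 at 51.0 in FA0 and Fzd5 at 23.2 in FA4 are the highest points of their libraries, and 18 of the 19 ligands lie left of the dotted line in both libraries.

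Because many genes of the Wnt family have start sites in CpG-rich sequence, and cytosine methylation is a subject of the study, the start-site sequences of 4 members were examined. Wnt6 and Fzd7 were higher in FA0, and Sfrp2 and Sfrp5 were lower. They are the 2 higher and 2 lower expressed members with the largest changes for which RefSeq (GRCm38.p6) supplied a window of 250 bases before to 50 bases after the start. CpG pairs are in capitals, and each sequence runs 5′ to 3′ on the strand of the gene.
Wnt6, chr1:74771642-74771941, plus strand: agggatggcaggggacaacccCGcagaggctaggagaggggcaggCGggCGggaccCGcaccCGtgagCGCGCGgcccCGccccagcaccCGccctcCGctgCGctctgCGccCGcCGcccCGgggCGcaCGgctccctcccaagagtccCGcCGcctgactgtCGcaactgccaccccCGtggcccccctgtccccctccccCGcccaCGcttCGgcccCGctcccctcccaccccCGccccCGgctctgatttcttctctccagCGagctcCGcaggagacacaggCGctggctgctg
Fzd7, chr1:59481897-59482196, plus strand: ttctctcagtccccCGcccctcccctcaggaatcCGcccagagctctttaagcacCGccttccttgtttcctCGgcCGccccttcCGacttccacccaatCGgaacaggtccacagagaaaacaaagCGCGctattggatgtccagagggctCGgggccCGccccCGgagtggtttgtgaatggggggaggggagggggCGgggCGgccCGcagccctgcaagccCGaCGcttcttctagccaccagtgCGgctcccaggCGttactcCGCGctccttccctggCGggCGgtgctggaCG
Sfrp2, chr3:83766071-83766370, plus strand: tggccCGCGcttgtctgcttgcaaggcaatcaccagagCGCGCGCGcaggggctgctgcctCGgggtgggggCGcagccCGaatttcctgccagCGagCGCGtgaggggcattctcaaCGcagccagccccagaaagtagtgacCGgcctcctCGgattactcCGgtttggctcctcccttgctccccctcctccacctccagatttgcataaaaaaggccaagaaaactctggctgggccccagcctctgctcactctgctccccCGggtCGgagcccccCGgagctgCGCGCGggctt
Sfrp5, chr19:42202203-42202502, minus strand: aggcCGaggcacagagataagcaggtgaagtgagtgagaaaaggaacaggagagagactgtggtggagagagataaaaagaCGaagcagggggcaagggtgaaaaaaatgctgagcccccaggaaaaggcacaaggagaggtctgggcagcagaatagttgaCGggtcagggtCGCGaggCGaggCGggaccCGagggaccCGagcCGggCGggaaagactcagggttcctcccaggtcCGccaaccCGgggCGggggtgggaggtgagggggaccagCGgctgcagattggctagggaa
The Wnt6 window holds 31 CpG pairs, Fzd7 24, Sfrp2 22 and Sfrp5 15, so both directions of difference occurred next to CpG-rich starts. The Fzd7 window lies upstream of the gene start in GENCODE M21, at 59482424 on chromosome 1. Windows were at hand for 26 members, 29 windows in all, and their median CpG count was 27.0, against 7.00 in the 32817 windows of all genes. Among the 8 expressed members with a window the count ran from 15 to 53. The TCF/LEF motifs CTTTGAT and CTTTGAA, searched on both strands, occurred in 3 of the 29 member windows (10.3%), those of Dkk1, Wnt11 and Wnt5b, and in 8.65% of all windows. None of these 3 genes was expressed, and a match of letters is no evidence of binding. The methylation of these sequences was not analysed here.

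Among the ligands, only Wnt6 was expressed in either library. Wnt6, a ligand gene of the embryonic ectoderm (chr1:74771892-74785322 of mm10), had an FPKM of 4.61 in FA0 and 2.18 in FA4, from 179 and 90 reads. This was 2.11-fold higher (95% counting interval 1.63 to 2.75), with a change of 0.82 that is under the 2-fold limit because of the added 1. Wnt6 made up 48.8% of the summed FPKM of all 19 ligands in FA0 and 30.1% in FA4. The other 18 ligands summed to 4.85 in FA0 and 5.07 in FA4, so the difference in summed ligand FPKM (9.46 in FA0 and 7.26 in FA4) came from Wnt6.

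The 18 ligands under the minimum had an FPKM from 0.0259 to 0.946 in FA0, with a median of 0.146, and from 0 to 0.999 in FA4, with a median of 0.248. FPKM was higher in FA0 for 7 of them and lower for 11. Reads were recovered for 17, and the counting interval held 1 for 16 of these, so a difference was not detectable at this depth. Wnt7b had an FPKM of 0.946 in FA0 and 0.999 in FA4, Wnt9a of 0.78 in FA0 and 0.735 in FA4, and Wnt2b of 0.565 in FA0 and 0.608 in FA4. These are the next ligands in order of their FPKM in FA4, and their intervals held 1. Wnt3, which directs formation of the primitive streak in the mouse, had 3 reads in FA0 and 11 in FA4, a ratio of 0.29 whose interval ran from 0.0519 to 1.10. Wnt3a, the ligand often added to stem cell cultures, had 10 reads in FA0 and 16 in FA4. Wnt5a and Wnt11, ligands of the beta-catenin-independent branch, had 10 and 31 reads in FA0 and 5 and 32 in FA4. Of the 18, 7 had at most 10 reads in each library, and Wnt1 had 2 reads in FA0 and 0 in FA4, where 0 reads allow an FPKM of up to 0.0671. Wnt8b (FPKM 0.167 in FA0 and 0.283 in FA4) did not give whole reads, and no interval is given for it.

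Wnt10a, which begins 6193 bases after the end of Wnt6 on the same strand of chromosome 1, was the 1 low ligand whose interval lay above 1. Its FPKM was 0.618 in FA0 and 0.302 in FA4, from 27 and 14 reads, a ratio of 2.05 (95% counting interval 1.04 to 4.23). The ratio of its neighbour Wnt6 was 2.11. Of the other ligand pairs within 100000 bases of each other, none had ratios this close. However, the intervals of Wnt3a, Wnt9a, Wnt9b and Wnt3 all held 1 and overlapped within each pair, so a difference between neighbours was not detectable. Wnt3a and Wnt9a lie 16175 bases apart on chromosome 11 and had ratios of 0.664 and 1.06. Wnt9b and Wnt3 lie 24328 bases apart on the same chromosome and had ratios of 1.77 and 0.29, from at most 11 reads in any library. Wnt10b and Wnt1 lie 11706 bases apart on chromosome 15, and Wnt1 gave no ratio.

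The Frizzled genes were led by Fzd5 and Fzd7 in both libraries, and both were higher in folate-deficient mESCs. Fzd7, a receptor linked to self-renewal in human embryonic stem cells (chr1:59482424-59486955), had an FPKM of 30.5 in FA0 and 17.9 in FA4, from 2444 and 1523 reads. It was 1.70-fold higher (95% counting interval 1.60 to 1.82), with a change of 0.74. Fzd5, a receptor needed for yolk sac vessels and eye development in the mouse (chr1:64730558-64737751), had an FPKM of 30.5 in FA0 and 23.2 in FA4, from 3731 and 3022 reads. It was 1.31-fold higher (95% counting interval 1.25 to 1.38), with a change of 0.38, or 0.18 with the trend of change over exon length and GC content removed. The same removal left Fzd7 at 0.69. Fzd7 therefore stood at 0.999 of the FPKM of Fzd5 in FA0 and at 0.769 of it in FA4. The intervals of their ratios did not overlap. The pair held 81.3% of the summed Frizzled FPKM in FA0 and 76.5% in FA4.

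Fzd10 was the third of the Frizzled genes that was higher, with an FPKM of 5.20 in FA0 and 2.96 in FA4 (299 and 181 reads), 1.75-fold (95% counting interval 1.45 to 2.12). Lower in FA0 were 3 Frizzled genes of low level. Fzd9 had an FPKM of 2.12 in FA0 and 3.11 in FA4, a ratio of 0.682 (95% counting interval 0.514 to 0.9). Fzd2 had an FPKM of 1.63 in FA0 and 2.13 in FA4, a ratio of 0.766 whose interval of 0.591 to 0.99 ended just under 1. Fzd3, which acts with Fzd6 in planar cell polarity and neural tube closure in the mouse, had an FPKM of 0.697 in FA0 and 1.05 in FA4, a ratio of 0.663 (95% counting interval 0.54 to 0.812). Its partner Fzd6 had an FPKM of 2.26 in FA0 and 1.93 in FA4, and its interval of 0.95 to 1.45 held 1. The third place among the Frizzled genes was held by Fzd10 in FA0 and by Fzd9 in FA4. The other 3 Frizzled genes were under the minimum. Fzd8 had an FPKM of 0.945 in FA0 and 0.445 in FA4 (100 and 50 reads), a ratio of 2.12 (95% counting interval 1.50 to 3.05). Fzd4 had an FPKM of 0.857 in FA0 and 0.665 in FA4, and Fzd1 of 0.336 in FA0 and 0.367 in FA4. Summed over all 10 genes, Frizzled FPKM was 75.0 in FA0 and 53.8 in FA4, a ratio of 1.39.

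**Figure D2:**
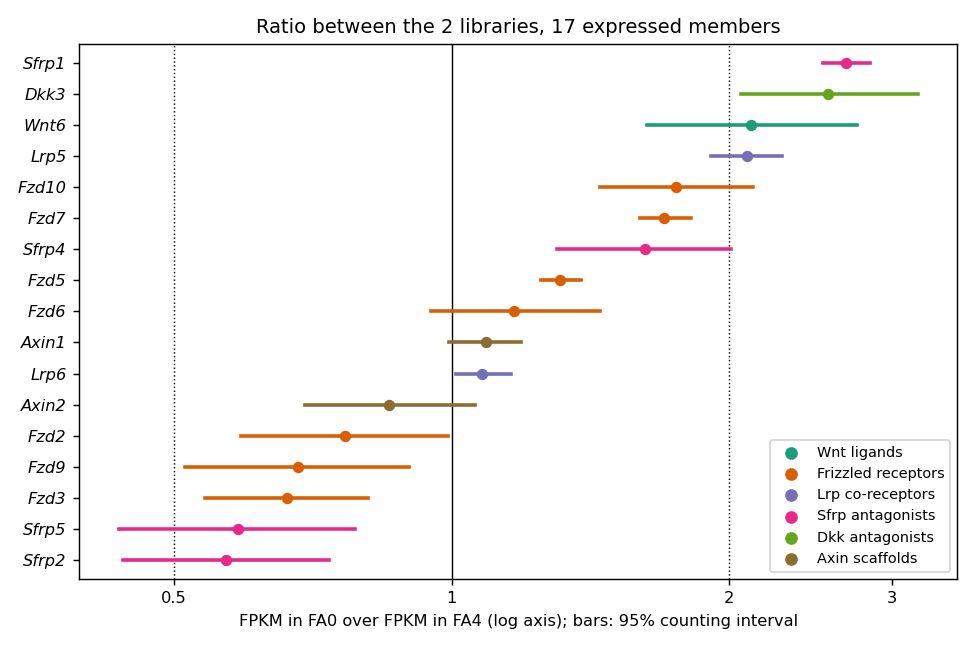
Ratio of FPKM in FA0 to FPKM in FA4 on a log axis for the 17 expressed members, with 1 point per gene coloured by role and 95% counting intervals as bars. Sfrp1 at 2.68 is at the top and Sfrp2 at 0.57 at the bottom, and the intervals of Fzd6, Axin1 and Axin2 cross the solid line at 1.

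The co-receptors differed from each other. Lrp5, known for its part in bone mass (chr19:3584828-3686564), had an FPKM of 8.31 in FA0 and 3.98 in FA4, from 1432 and 729 reads. It was 2.09-fold higher (95% counting interval 1.91 to 2.28), with a change of 0.90. Lrp6, whose loss gives neural tube defects in the mouse (chr6:134446476-134566965), had an FPKM of 6.43 in FA0 and 5.93 in FA4, from 1556 and 1526 reads. Its ratio was 1.08 (95% counting interval 1.01 to 1.16), well below the interval of Lrp5. Lrp5 stood at 1.29 times the FPKM of Lrp6 in FA0 and at 0.671 times in FA4, so the order of the co-receptors was not the same in both libraries. The change of expressed genes varied with exon length and GC content, which took up 5.68% of its variance. With that trend removed, the change of Lrp5 was 0.54 and that of Lrp6 was 0.04.

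The Sfrp genes held the largest change of all members, and they moved in both directions. Sfrp1 (chr8:23411502-23449632) had an FPKM of 51.0 in FA0 and 19.0 in FA4, from 3948 and 1564 reads. It was 2.68-fold higher (95% counting interval 2.53 to 2.84), with a change of 1.38, or 1.37 with the length and GC trend removed. Sfrp4 had an FPKM of 2.92 in FA0 and 1.81 in FA4 (216 and 142 reads), 1.62-fold higher with an interval above 1. By contrast, Sfrp2 (chr3:83766321-83774316) had an FPKM of 2.49 in FA0 and 4.37 in FA4 (95 and 177 reads), 1.75-fold lower (95% counting interval 1.36 to 2.27). Sfrp5 (chr19:42197971-42202252) had an FPKM of 2.20 in FA0 and 3.75 in FA4 (74 and 134 reads), 1.70-fold lower (95% counting interval 1.27 to 2.30). In the mouse Sfrp1, Sfrp2 and Sfrp5 act redundantly in elongation of the body axis. In these libraries Sfrp1 therefore differed in the opposite direction from the other genes of that group.

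Sfrp1 alone made up 87.0% of the summed Sfrp FPKM in FA0 and 65.7% in FA4, while the other 3 genes summed to 7.61 in FA0 and 9.93 in FA4. The summed Sfrp FPKM was 58.6 in FA0 and 28.9 in FA4, a ratio of 2.02. Set against the receptors, the FPKM of Sfrp1 was 0.68 of the summed Frizzled FPKM in FA0 and 0.354 of it in FA4. These are ratios of transcripts and say nothing of the amount of secreted protein.

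**Figure D3:**
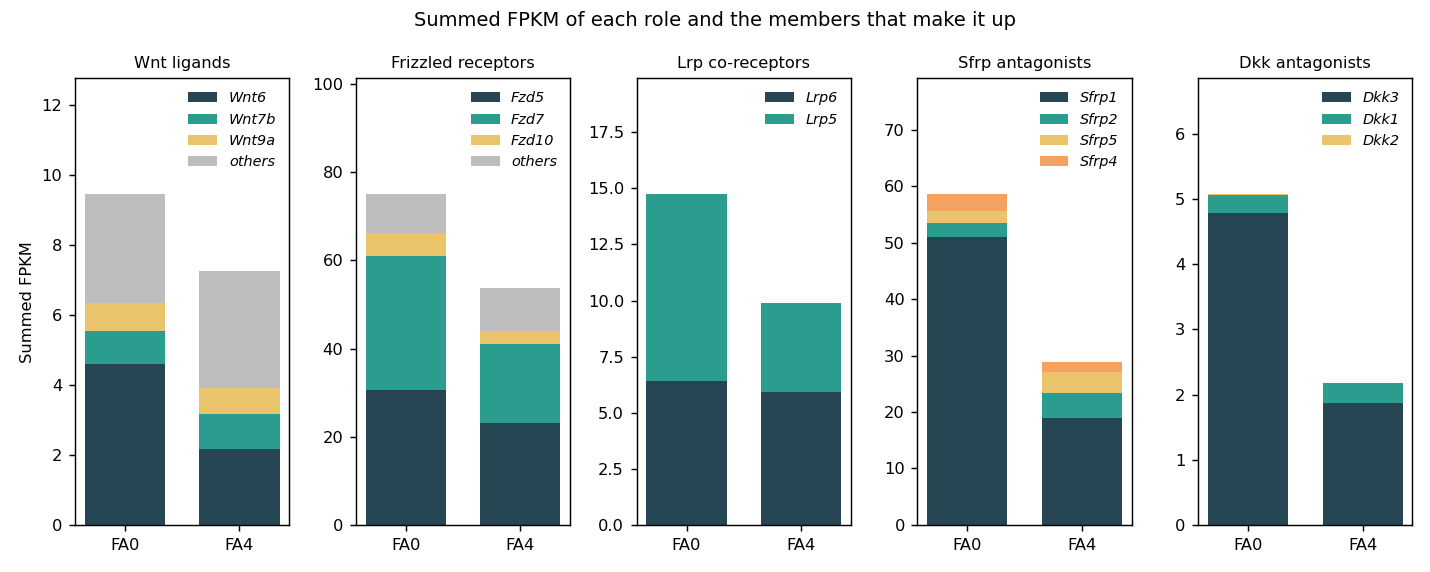
Summed FPKM of the Wnt ligands, Frizzled receptors, Lrp co-receptors, Sfrp genes and Dkk genes in FA0 (left bar) and FA4 (right bar), 1 library each, with the leading members in colour and the other members of the ligands and Frizzled receptors in grey. Each panel has its own axis from 0. Sfrp1 fills 87.0% of the Sfrp bar in FA0 and 65.7% in FA4, and Wnt6 fills 48.8% of the ligand bar in FA0 and 30.1% in FA4.

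Of the Dkk genes only Dkk3 was expressed. Dkk3, a divergent member that is not known to block Lrp5 or Lrp6 as Dkk1 does (chr7:112116017-112159057), had an FPKM of 4.78 in FA0 and 1.87 in FA4, from 284 and 118 reads. It was 2.56-fold higher (95% counting interval 2.06 to 3.20), with a change of 1.01, just past the limit. Dkk1, the canonical Lrp antagonist, had an FPKM of 0.279 in FA0 and 0.307 in FA4, from 12 and 14 reads. Dkk2 had 1 read in FA0 and 0 in FA4, where 0 reads allow an FPKM of up to 0.0431. Hence the difference in summed Dkk FPKM (5.07 in FA0 and 2.17 in FA4) was that of Dkk3.

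The counting intervals of both Axin scaffolds held 1. Axin1, the scaffold present in most cells, had an FPKM of 14.5 in FA0 and 13.3 in FA4 (983 and 960 reads), a ratio of 1.09 (95% counting interval 0.994 to 1.19). Axin2, which beta-catenin and TCF factors induce and which is widely read as a measure of pathway output, had an FPKM of 1.70 in FA0 and 1.99 in FA4 (166 and 206 reads). Its ratio was 0.856, and its interval of 0.693 to 1.06 allows a lower level but not one more than 1.06-fold higher by counting error.

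The median change was larger among the expressed members with higher FPKM. Of the 17 expressed members, 6 had a mean FPKM of 5 or more over both libraries, and their median change was 0.56, against 0.00 for all 8263 genes of that level. The mean holds the FA0 value that is compared, so level and change are not independent. Lrp5 (8.31 in FA0 and 3.98 in FA4) is among the 6 through its value in FA0. The other 11 had a median change of -0.15, against 0.12 for all 6082 genes with a mean FPKM under 5. At the higher level 1 member (Sfrp1) was at least 2-fold higher and 0 lower, beside 1.65% and 0.605% of genes. At the lower level it was again 1 (Dkk3) and 0, beside 4.82% and 2.30% of genes.

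**Figure D4:**
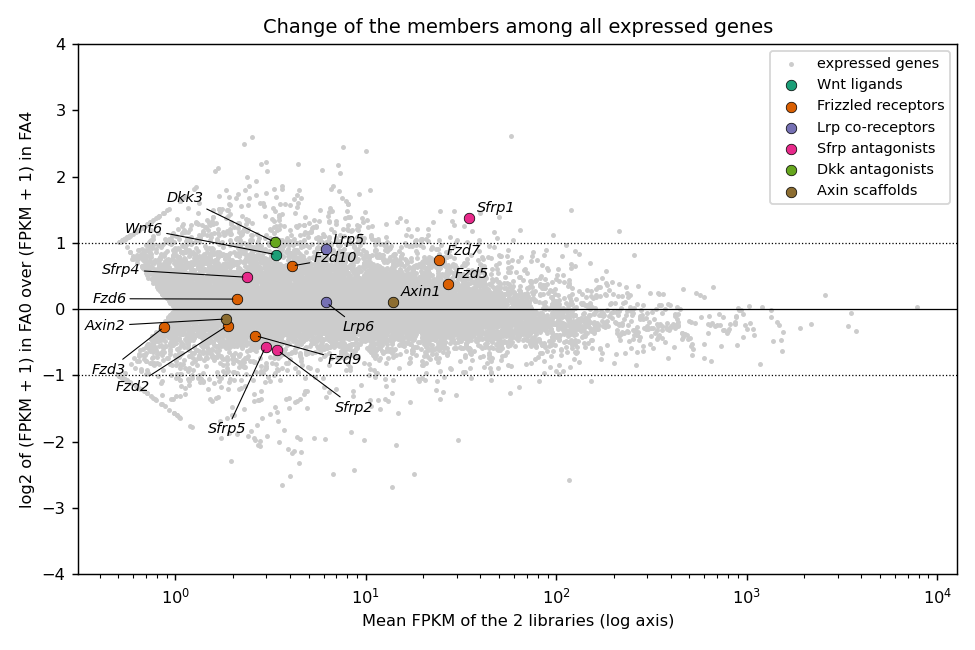
Change (difference of log2(FPKM + 1), FA0 minus FA4) against the mean FPKM of both libraries on a log axis for the 14345 expressed genes (grey) and the 17 expressed members (coloured by role), with dotted lines at the limits of 1 and -1. Sfrp1 at 1.38 and Dkk3 at 1.01 are past the upper limit, no member is past the lower one, and 1 gene that is not a member lies outside the plotted range.

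Other genes of the Wnt pathway were taken from 8 lists, of which 69 genes were in the table and 47 were expressed. Of these 47, 0 were called at least 2-fold higher and 0 lower, beside 2.99% and 1.32% of all expressed genes, and their median change was 0.17. The counting interval lay above 1 for 18, below 1 for 10 and held 1 for 13, and the remaining ones gave no whole reads. Over all expressed genes with whole reads, 34.1% lay above 1 and 25.5% below. For secretion of the ligands, Porcn, the acyltransferase that adds their lipid, had an FPKM of 19.8 in FA0 and 30.0 in FA4, 1.51-fold lower (95% counting interval 1.40 to 1.64). Wls, the carrier of Wnt proteins to the cell surface, had an FPKM of 0.932 in FA0 and 1.32 in FA4, and so passed the minimum through FA4 alone. Notum, which removes the lipid from secreted Wnt proteins and is also a beta-catenin target, had an FPKM of 4.64 in FA0 and 2.96 in FA4.

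At the receptor level, the R-spondin list had a median change of 0.11 over 3 expressed genes. Rspo1, a secreted enhancer of Wnt signalling, had an FPKM of 1.34 in FA0 and 1.45 in FA4. Its receptor Lgr4 had an FPKM of 11.7 in FA0 and 10.3 in FA4, and Znrf3, a ubiquitin ligase that removes Frizzled from the surface, of 3.36 in FA0 and 3.04 in FA4. None of these 3 ratios was above 1.14. The beta-catenin-independent receptors Ror2 and Ptk7 were higher. Ror2, a receptor for Wnt5a, had an FPKM of 5.45 in FA0 and 2.95 in FA4, 1.85-fold (95% counting interval 1.57 to 2.18). Ptk7, a planar polarity receptor needed for neural tube closure in the mouse, had an FPKM of 27.1 in FA0 and 17.0 in FA4, and the third gene of that list, Ryk, of 19.7 in FA0 and 21.0 in FA4. Among the other inhibitors, with a median change of 0.19 over 7 expressed genes, Kremen1, a Dkk receptor, was 1.45-fold higher (95% counting interval 1.29 to 1.64). Wif1, which binds Wnt ligands, had 56 reads in FA0 and 33 in FA4, a ratio of 1.80 (95% counting interval 1.15 to 2.86). Kremen2, another Dkk receptor, had an FPKM of 0.612 in FA0 and 1.05 in FA4, so that Wif1 passed the minimum through FA0 alone and Kremen2 through FA4 alone. The FPKM of Tpbg, a membrane inhibitor, was 2.52 in FA0 and 2.04 in FA4.

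Inside the cell, the destruction complex and the Dishevelled genes had a median change of 0.06 over 12 expressed genes. The largest changes of that list were those of the Dishevelled genes, which pass the signal on from Frizzled. Dvl1 was 1.55-fold higher (95% counting interval 1.40 to 1.71), Dvl2 1.32-fold (1.24 to 1.41), and Dvl3 had an FPKM of 5.30 in FA0 and 3.57 in FA4. Apc, a core part of the destruction complex, had an FPKM of 8.88 in FA0 and 7.59 in FA4. The TCF/LEF factors and cofactors had a median change of 0.37 over 10 expressed genes, and Tle3 and Aes lay at its ends. Tle3, a Groucho corepressor, had an FPKM of 21.9 in FA0 and 10.5 in FA4, 2.08-fold higher (95% counting interval 1.98 to 2.19). Aes, a short relative of the corepressors, had an FPKM of 68.3 in FA0 and 131.6 in FA4, 1.93-fold lower (95% counting interval 1.86 to 2.00). Tcf7l1, the repressive TCF factor of mESCs, had an FPKM of 59.8 in FA0 and 37.2 in FA4, 1.61-fold higher (95% counting interval 1.53 to 1.69). Bcl9, a coactivator of beta-catenin, had an FPKM of 5.04 in FA0 and 3.03 in FA4.

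Of the 18 beta-catenin target genes in the table, 8 were expressed, with a median change of 0.29 and intervals above 1 for 4 and below 1 for 0. Those with the largest changes were Notum, Bmp4 (FPKM 8.09 in FA0 and 5.51 in FA4), Tcf7 (19.8 in FA0 and 14.0 in FA4) and Myc (5.65 in FA0 and 4.15 in FA4). Axin2 is a member and was not counted among them, and its interval held 1. The 5 genes that TCF7L1 represses in mESCs were all expressed, with a median change of -0.06. Tfcp2l1, a factor of naive pluripotency, had an FPKM of 70.5 in FA0 and 40.2 in FA4, 1.75-fold higher (95% counting interval 1.70 to 1.81), and Nr5a2 of 19.0 in FA0 and 15.9 in FA4. Nanog had an FPKM of 418.0 in FA0 and 547.7 in FA4, Esrrb of 117.2 in FA0 and 134.9 in FA4, and Klf2 of 173.1 in FA0 and 180.0 in FA4.

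**Figure D5:**
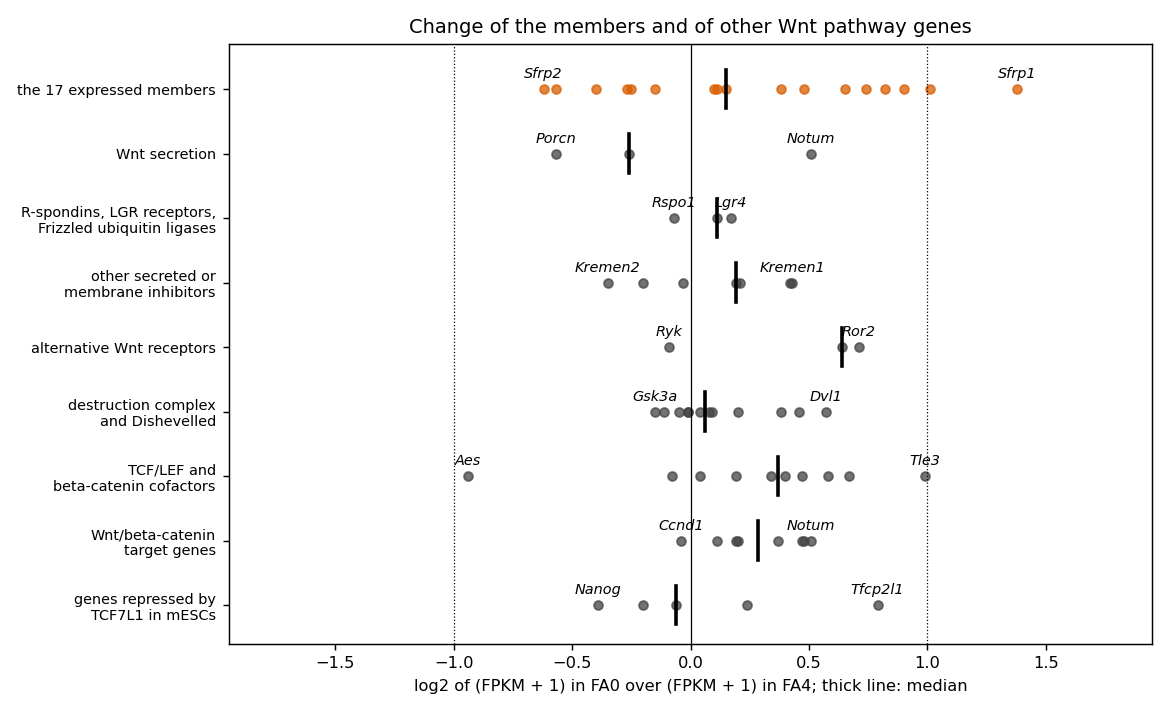
Change (difference of log2(FPKM + 1), FA0 minus FA4) of each expressed gene in the 8 lists of other Wnt pathway genes and of the 17 expressed members (orange), with 1 point per gene, the median as a thick line, and the lowest and highest gene of each row named. No list gene passes the dotted limits of 1 and -1, Tle3 at 0.99 being nearest, whereas Sfrp1 at 1.38 and Dkk3 at 1.01 do.

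The libraries were similar in depth, with 18367807 reads recovered over the genes of FA0 and 19534483 over those of FA4. Both sums exceed the totals to which the FPKM are scaled, 17704838 in FA0 and 18807177 in FA4, and the reason was not tested. In all, 13840 genes in FA0 and 13332 in FA4 reached an FPKM of 1. As a check of the label, all 8 markers of pluripotent cells were expressed in both libraries, with a summed FPKM of 4178.8 in FA0 and 5255.0 in FA4 and a median change of -0.26, and their counting intervals all lay below 1. Markers of other cell types were set beside the Wnt genes because Sfrp1, Dkk3 and Wnt6 are also used by differentiated cells. The sums that follow run over all markers of a list, expressed or not. Of 10 fibroblast or feeder markers, 3 were expressed, and all 10 summed to an FPKM of 9.90 in FA0 and 11.4 in FA4. None of the other 7 reached an FPKM of 1. Among those 7, Pdgfra had 58 reads in FA0 and 159 in FA4, a ratio of 0.387 (95% counting interval 0.282 to 0.527). Col1a1 had 35 reads in FA0 and 25 in FA4, Col1a2 had 6 in FA0 and 12 in FA4, and Postn had 9 in FA0 and 0 in FA4. Col3a1 and Lum each had 1 read in FA0 and 0 in FA4. Acta2 had an FPKM of 0 in FA0 and 0.358 in FA4. Of 8 primitive streak and mesoderm markers 3 were expressed, and all 8 summed to 7.56 in FA0 and 5.22 in FA4. These markers differed in both directions. Gsc, which passed the minimum through FA0 alone, had a ratio of 2.20 (95% counting interval 1.15 to 4.38). Eomes had a ratio of 1.65 (1.34 to 2.04), and the interval of Tbx6 held 1. Under the minimum, Kdr had 119 reads in FA0 and 45 in FA4, with an interval above 1. By contrast, T had 5 reads in FA0 and 18 in FA4, with an interval below 1. The intervals of Mixl1, Lhx1 and Mesp1 held 1. Of 8 neural markers 3 were expressed, and all 8 summed to 43.3 in FA0 and 45.8 in FA4. Of 7 trophoblast markers only Tfap2c was expressed (15.6 in FA0 and 16.3 in FA4), and all 7 summed to 16.3 in FA0 and 17.2 in FA4. Of 10 primitive and parietal endoderm markers 4 were expressed, and all 10 summed to an FPKM of 28.7 in FA0 and 19.5 in FA4. Most of that sum was the laminin gene Lama1 (24.6 in FA0 and 12.1 in FA4). The other expressed markers were lower in FA0. Gata6, which defines primitive endoderm, had 0.778 in FA0 and 2.58 in FA4, and Gata4 and Dab2 had ratios of 0.727 and 0.726 with intervals below 1. Of those under the minimum, Sox17, Sox7 and Pdgfra were lower with intervals below 1. Foxa2 had 17 reads in FA0 and 9 in FA4, and its interval held 1, as did those of Afp and Ttr. The part of these cells in the values of Sfrp1, Dkk3 and Wnt6 was not tested.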

How the data were processed

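RNA-seq of Sv129 mESCs in FA0 and FA4 was used, 1 library each. The other assays of the study were left out. Reads were mapped to mm10 by the authors, who deposited an FPKM for each Ensembl gene, relative to the total of its own library. HISAT2 2.1.0 is named in the submitters' processing notes with StringTie 1.3.3b, as is DESeq 1.28.0, and Tophat and limma in the methods. For strand and multi-mapped reads the handling was not given in the sources used here.

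Reads were recovered as FPKM times the merged exon length in GENCODE M21 (39 genes had none), with fitted scaling totals of 17704838 for FA0 and 18807177 for FA4. Of values up to 20 reads, 98.1% in FA0 and 97.9% in FA4 lay within 0.05 of a whole number. PCR copies were counted as reads. The floor for a count of 0 was 3 reads. Changes used a pseudocount of 1 and a minimum FPKM of 1. Exact tests were not possible with 1 library per condition.

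The members and the gene lists were chosen with earlier results of these data known. All members are accounted for, and of each other list up to 4 expressed genes with the largest changes are named, or all in a list of up to 5. Dkk1, Fzd1, Fzd4, Fzd8, low ligands and markers were named after their values were seen. Alternatives were pseudocounts of 0.1 and 0.5, no minimum, a minimum FPKM of 5, rescaling by the median ratio of 7744 genes, and TPM. Removal of a length and GC trend was added after seeing the data. Python 3.11.15 with pandas 2.3.3, numpy 2.4.6, scipy 1.17.1 and matplotlib 3.10.9 was used, and the scripts were tested on simulated data.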

Additional observations from a re-analysis of the deposited data

How the results depend on the processing

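Members called at least 2-fold higher in FA0 numbered 2 (Sfrp1 and Dkk3) with a pseudocount of 0.5, with no minimum, after rescaling by the median ratio and after removal of the length and GC trend, as in the report. Under these alternatives 1.49% to 4.59% of all genes were called higher. The number of members called higher was 4 of 17 with a pseudocount of 0.1, beside 6.63% of all genes. In TPM it was 4 of 26, beside 8.13% of all genes, and Lrp5 and Wnt6 were the members added in both. With a minimum FPKM of 5, which Dkk3 does not reach, it was 1 (Sfrp1) of 7, beside 2.23% of all genes. A value in TPM is larger than the same value in FPKM, so the minimum and the pseudocount of 1 weigh less there. Rescaling to TPM also multiplied every ratio of FA0 over FA4 by 1.06. The ratio was then 2.24 for Wnt6, against 2.11 in FPKM, and 2.21 for Lrp5, against 2.09. The count of members called at least 2-fold lower was 0 under each of these alternatives, beside 0.659% to 3.18% of all genes. The median change of the members, 0.15 in the report, was 0.02 with no minimum, where all 40 enter, beside 0.03 for all genes. With a minimum FPKM of 5, where 7 enter, the median was 0.65, beside 0.01 for all genes. Of these 7, Fzd10 (5.20 in FA0 and 2.96 in FA4) and Lrp5 (8.31 in FA0 and 3.98 in FA4) passed through FA0 alone, and 0.65 is the change of Fzd10. Under the other alternatives the median lay between 0.16 and 0.22. Over the 14345 genes of the report, 429 were called higher and 190 lower, against 951 and 409 with a pseudocount of 0.1 and 659 and 279 with 0.5. The counts were 195 and 80 of 8731 genes with a minimum FPKM of 5, and 1529 and 599 of 18809 genes in TPM. TPM also moved the median change of all genes to 0.15. No paired analysis was possible because there was 1 library per condition, and no replicate could be left out. At this depth the counting interval held 1 for 16 of the 17 low ligands with whole reads.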
